A study of Mus musculus with 4 samples.

Results

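The miR-297, miR-466, miR-467 and miR-669 families of the mouse were followed in small RNA libraries of embryonic retina. Members were all rows of the raw miRNA table whose names begin with one of those 4 numbers followed by a letter or a hyphen, whatever their count. The rule took 70 of 1326 listed mature miRNAs: 6 of miR-297, 29 of miR-466, 12 of miR-467 and 23 of miR-669. By name, 32 were 5p arms, 29 were 3p arms and 9 carried no arm. Whole retina at E18.5 was sampled from Ptf1a+/- mice (2 libraries) and Ptf1a-/- mice (2 libraries). Ptf1a encodes a transcription factor that retinal progenitors need to form horizontal and amacrine cells. All groups thus carry at least 1 disrupted Ptf1a allele, and no Ptf1a+/+ retina was analysed here. The labels name neither the strain nor the kind of allele, and they do not say whether a library came from 1 embryo or from a pool. Ptf1a mRNA is not measured in small RNA, so the genotype labels have no check of that kind.

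These miRNAs are known as a rodent cluster inside an intron of Sfmbt2, a Polycomb-group gene that is imprinted in mouse placenta and early embryo. The cluster arose by repeated tandem duplication, and many of its hairpins differ from one another at few positions. A miRNA precursor folds into a hairpin from which a 5p and a 3p arm are cut, and an Argonaute protein carries 1 arm to target mRNAs mainly through the seed, bases 2 to 8. The families are best known from placenta and embryonic stem cells.

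In the GENCODE M21 annotation (GRCm38), Sfmbt2 lies at chr2:10370510-10595253 on the plus strand and holds 119 miRNA precursors. Of these, 71 bear family names (5 Mir297, 23 Mir466, 14 Mir467 and 29 Mir669), 48 have no Mir name and 0 belong to another named miRNA family. They span 52993 bases, chr2:10465287-10518279, and overlap no exon. They all lie in an intron of 62472 bases, between exons 10 and 11 of one annotated transcript and exons 11 and 12 of another. A further 10 precursors with these family names lie elsewhere, 3 of them on chromosome 3 and 2 on chromosome 13. The most frequent sequence of each member was matched exactly to annotated precursors, leaving out bases added at either end. Where it held a mismatch, a read without one from another library was used if listed. Among these members were miR-466j, miR-466m-5p and miR-669m-5p, whose read with a mismatch recurred in 3 libraries. Where no sequence recurred between libraries, that of 1 library was used. In both cases the match is less certain. Precursors inside Sfmbt2 alone matched 52 members, 8 matched inside and outside, 2 matched outside only (miR-466i-5p and miR-669n) and 8 matched none. In each of the 8 without a match the most frequent sequence held a mismatch. No match was sought for rows that listed only reads with a mismatch, so the lack of one there says nothing about the locus. The trimmed read of miR-466i-5p matched 66 precursors on many chromosomes, so it names no locus. Of the 62 matched members, 20 matched 1 precursor and 42 matched several. No non-member matched a precursor inside Sfmbt2.

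The sequences that carry most of the families' reads are shown first, since rows that point to the same or nearly the same read are compared further on. Each is the most frequent read, 5′ to 3′ with T for U, in 2 or more libraries, and capitals mark the seed; miR-467a-5p and miR-669a-5p are given as in Ptf1a+/-.
miR-669c-5p: aTAGTTGTgtgtggatgtgtgtat
miR-467e-5p: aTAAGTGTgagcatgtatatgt
miR-467c-5p: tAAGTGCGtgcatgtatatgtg
miR-467a-5p: tAAGTGCCtgcatgtatatgc
miR-467b-5p: tAAGTGCCtgcatgtatatgt
miR-669a-5p and miR-669p-5p: aGTTGTGTgtgcatgttcatgt
miR-669l-5p: aGTTGTGTgtgcatgtatatgt
miR-669e-5p: tGTCTTGTgtgtgcatgttcatt
miR-669b-5p: aGTTTTGTgtgcatgtgcatgtgt
miR-669d-5p: aCTTGTGTgtgcatgtatatgt
miR-297b-5p: aTGTATGTgtgcatgaacatgt
These 5p arms are rich in alternating T and G. On the miRNA's own strand, overlaps allowed, the run TGTGTG stood in 29 of 70 members (41.4%; 25 of 32 named 5p and 0 of 29 named 3p) against 17 of 1256 non-members (1.35%).

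The opposite arms carry the complement-like runs, and 3 of them are shown because several rows point to the same read.
miR-466a-3p, miR-466e-3p, miR-466b-3p, miR-466c-3p and miR-466p-3p: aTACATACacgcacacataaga
miR-467a-3p and miR-467d-3p: aTATACATacacacacctaca
miR-669f-3p: cATATACAtacacacacacgtat
The run ACACAC stood in 23 of 70 members (32.9%; 20 of 29 named 3p and 0 of 32 named 5p) against 5 of 1256 non-members (0.4%). The 70 members had 55 distinct most frequent sequences and 37 distinct seeds. Another member had the same most frequent sequence for 25 of them, and a non-member for 0. The seed was shared with another member by 46, and the most widespread seed, TATACAT, belonged to 9 members.

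miR-467a-5p, miR-467b-5p and miR-467c-5p hold AAGTGC at bases 2 to 7, the hexamer known from the embryonic stem cell miRNAs of the miR-290 and miR-302 clusters. AAGTGC stood anywhere in 4 of 70 members (5.71%) and 13 of 1256 non-members (1.04%). At bases 2 to 7 it was also found in 4 non-members, shown for comparison.
miR-350-5p: aAAGTGCAtgcgctttgggaca
miR-302d-3p: tAAGTGCTtccatgtttgagtgt
miR-302a-3p: tAAGTGCTtccatgtttt
miR-291a-3p: aAAGTGCTtccactttgtgtgc
miR-350-5p, of neither cluster, had 244 and 279 counts in Ptf1a+/- and 170 and 171 in Ptf1a-/-. The 3 listed rows of the miR-290 to miR-295 cluster summed to 0, 3, 1 and 1 counts over the 4 libraries, and the 4 rows of the miR-302 cluster summed to 4, 9, 2 and 2. Nearly all counts of rows with this hexamer at bases 2 to 7 of the most frequent sequence thus belonged to miR-350-5p and the 3 miR-467 arms. The remaining member with the hexamer, miR-467d-5p, had 51 and 68.5 counts in Ptf1a+/- and 43 and 35 in Ptf1a-/-. Its most frequent sequence holds the hexamer 1 base later. In Ptf1a-/- replicate 1, however, its read started 1 base further in and held it at bases 2 to 7. A shared seed is a description of the letters and says nothing about which mRNAs were bound.

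The hairpin of the most abundant member shows where its reads come from, with the mature arm in capitals (GRCm38, plus strand, inside the Sfmbt2 intron).
Mir669c, chr2:10509296-10509404, 5p arm at 10509319 to 10509342: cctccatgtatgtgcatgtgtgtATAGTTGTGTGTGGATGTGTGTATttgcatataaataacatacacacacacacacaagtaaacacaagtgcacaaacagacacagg
The 5p arm of Mir669c matched this precursor alone.

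The libraries held 3647145 to 4385834 listed counts each. The Ptf1a+/- libraries were close to each other, with a chi-square per degree of freedom of 1.85 over miRNAs, and the Ptf1a-/- libraries lay far apart, at 120. Over member rows, with same-value rows taken once, these values were 1.24 and 2.14. The measure rises with counts and members have few, so it does not show that members varied less. In Ptf1a-/- replicate 2 the TMM factor, edgeR's scaling for composition, was 0.829 against 1.06 to 1.07 in the other 3. TMM-scaled CPM are counts per 1000000 listed counts after that scaling. In Ptf1a-/- replicate 2, 5 retinal miRNAs (miR-9-5p, miR-124-3p, miR-183-5p, miR-96-5p and miR-182-5p) summed to 517800 TMM-scaled CPM against 337000 to 363400. Not all of them followed the sum: miR-124-3p was lowest in that library, at 832 CPM against 1019 to 1033. All 5 were present, as the tissue label has it, while 4 blood cell miRNAs summed to 63.6 to 96.4 CPM. Pigment epithelium (3203 to 3728 CPM), lens (227 to 304.7, with 3 of 4 rows listed), vessel (352 to 613.6) and muscle lists (48.6 to 70.3) also had counts in each library. These are sums, and single rows could be nearly absent. miR-145a-5p of the vessel list had 0, 1, 0 and 0 counts over the libraries, and miR-144-3p of the blood list had 2, 2, 0 and 0. The part of these lists in the results below was not tested.

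Most members were detected, and most of them at low counts. A value above 0 was listed for 59, 58, 60 and 54 of 70 members in Ptf1a+/- replicates 1 and 2 and Ptf1a-/- replicates 1 and 2, or 84.3, 82.9, 85.7 and 77.1%, against 76.4, 80.6, 76.0 and 72.9% of the 1256 non-members. In all 4 libraries 48 members were above 0, and 69 were in at least 1. The exception was miR-669n, which had 0 counts in each library, as far as the deposited decimals show. A count of 0 allows up to 3 counts, or 0.638 to 0.923 CPM depending on the library, for counting error only. At 10 or more counts 33, 35, 35 and 35 members remained. Only 4 members reached 100 counts in any library.

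A zero came in 2 spellings. The value was written as 0 in 41 member cells, none of which had a most frequent sequence, and as 0.0 in 8 cells, all of which had one. The second spelling fell on miR-669n and miR-466d-5p (2 libraries each) and on miR-466o-3p, miR-669a-3-3p, miR-669d-2-3p and miR-669l-3p (1 library each). Reads were thus assigned to these rows although their rounded value is 0.

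The families together made up 0.0786 and 0.0789% of listed counts in Ptf1a+/- and 0.0747 and 0.0619% in Ptf1a-/-. On the TMM scale all members summed to 740.3 and 736.3 CPM in Ptf1a+/- and to 705.6 and 746.7 CPM in Ptf1a-/-. The range in Ptf1a-/- spans both Ptf1a+/- values, and the log2 ratio of the means (738 ± 2.82 and 726 ± 29 CPM, SD, n = 2 each) was -0.024.

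**Figure D1:**
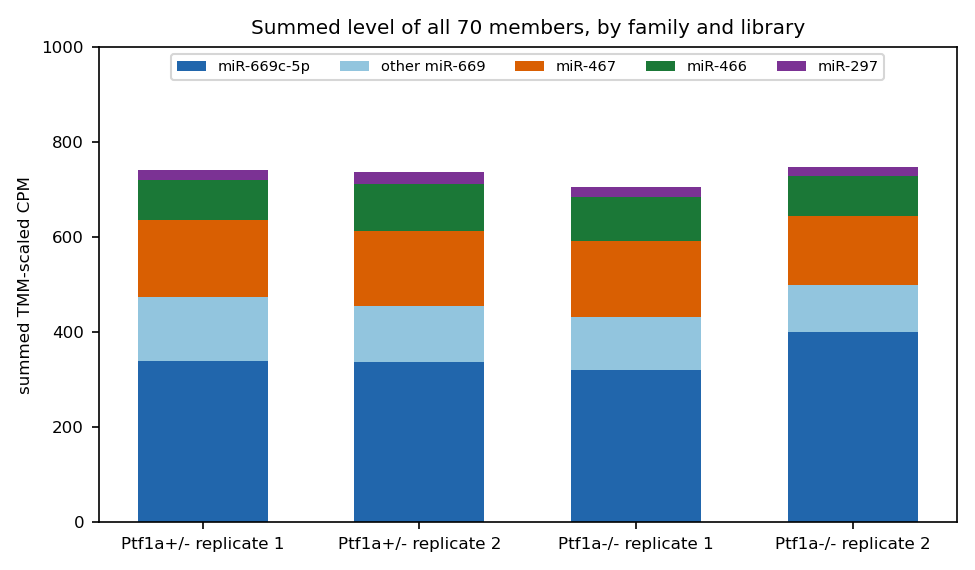
Summed TMM-scaled CPM (y axis, from 0) of all 70 members in each of the 4 libraries (x axis), stacked by family, with miR-669c-5p drawn apart from the rest of miR-669. The totals lie between 705.6 and 746.7, and the share of miR-669c-5p is largest in Ptf1a-/- replicate 2.

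A single arm held about as many reads as all other members together. miR-669c-5p took 45.9 and 45.8% of member counts in Ptf1a+/- and 45.4 and 53.7% in Ptf1a-/-, and it stood 123rd by mean level among all listed miRNAs. The next members, miR-467e-5p and miR-467c-5p, stood 254th and 277th. miR-669 as a family summed to 475 and 455 CPM in Ptf1a+/- and 433 and 499 in Ptf1a-/-. miR-467 summed to 161 and 157 against 158 and 145 CPM, and miR-466 to 83.7 and 98.5 against 93.2 and 84.1. miR-297, the smallest family, summed to 20.6 and 25.1 against 21.4 and 18.7 CPM.

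Without miR-669c-5p the sums were lower in both Ptf1a-/- libraries than in both Ptf1a+/- libraries. They came to 401 and 399 CPM in Ptf1a+/- and to 385 and 346 CPM in Ptf1a-/-, a log2 ratio of -0.13. Within miR-669 the remaining members gave 135 and 118 against 113 and 98.3 CPM, a log2 ratio of -0.264. miR-669c-5p was set apart after its values were seen, and 2 libraries against 2 cannot give an exact permutation p under 1 in 3, so these sums carry no test.

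The 5p arms led. Members named 5p held 88.9 and 87.7% of member counts in Ptf1a+/- and 85.6 and 88.5% in Ptf1a-/-, and 79.5, 77.3, 73.6 and 75.1% without miR-669c-5p. Among 27 names listed with both arms, the 5p arm had more counts for 18 and the 3p arm for 9, and the leading arm was the same in all libraries for 24. With 100 or more counts over both arms, 14 of 17 names favoured 5p. Several names share a row of reads, so these tallies partly follow how reads were divided among names. miR-466b and miR-466c, for example, were counted as led by 5p. Member rows with their 5p seed, GATGTGT, summed to 80.4, 106.6, 69.0 and 55.0 counts over the libraries. Those with their 3p seed, TACATAC, which more names share, summed to 83.9, 106.7, 79.8 and 66.1. The 3 that favoured 3p included miR-466d, with 0, 1, 0 and 0 counts of 5p against 31.8, 34.2, 30.1 and 26.5 of 3p, and miR-669f, with 9.2, 15, 9 and 10 against 34, 45, 42 and 31. For miR-466i the leading arm was not the same in all libraries: 3p led (30, 54 and 50 against 6, 22 and 19 counts) except in Ptf1a-/- replicate 2, where 5p had 27 counts and 3p had 21.

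**Figure D2:**
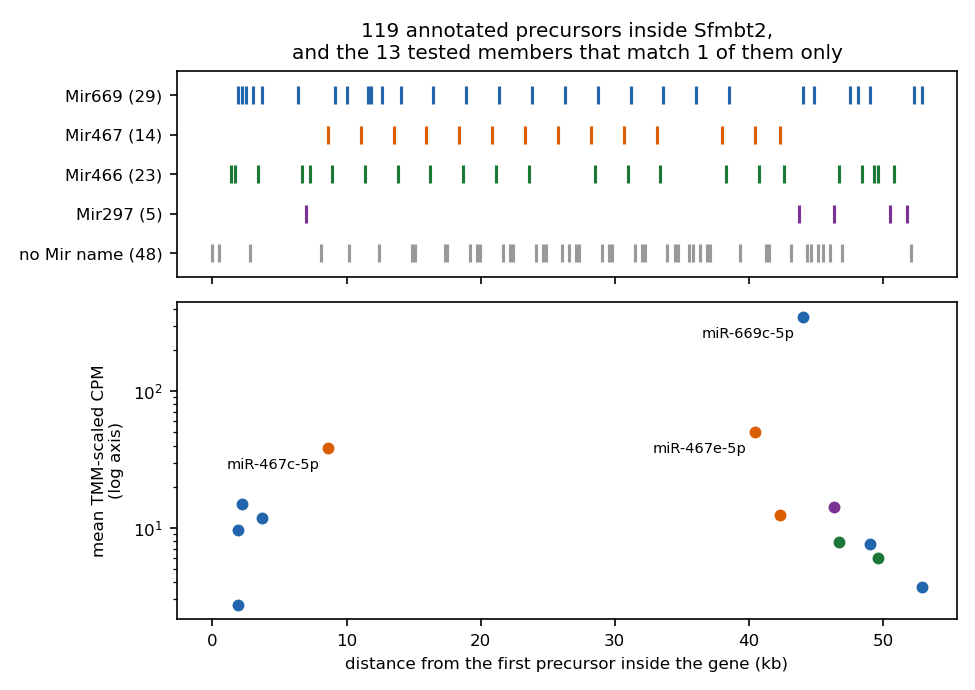
Upper panel: positions of the 119 annotated precursors inside Sfmbt2 (x axis, distance from the first precursor in kb), by name. Lower panel: mean TMM-scaled CPM over 4 libraries (log y axis) of the 13 tested members that match 1 precursor only, coloured by family; miR-669c-5p lies 44.0 kb and miR-467e-5p 40.4 kb into the cluster.

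Only members that match 1 precursor can be placed, and among those tested the positions fall towards both ends of the cluster. miR-669f, miR-669e, miR-669l and miR-467c lie within its first 8.64 kb. miR-467e, miR-467d, miR-669c, miR-297b, miR-466d, miR-669o, miR-466h and miR-669h lie from 40.4 kb on. The middle holds repeated copies: the sequence of miR-669a-5p and miR-669p-5p matched 15 precursors, that of miR-467a-5p 12 and that of miR-466b-5p 11. High and low levels of 5p arms stand side by side. Mir669c (chr2:10509296-10509404) gave a mean of 349.5 CPM, while Mir297c (chr2:10509016-10509113) upstream of it gave 0.156 CPM of miR-297c-5p. The read listed for miR-297c-5p differed between libraries, so its placement is less certain. For miR-297c the 3p arm led, with 2.3, 4.3, 5.7 and 2.3 counts, values that miR-297a and miR-297b share.

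Values that are not whole were more frequent among member rows than among other rows of the table, while the share of counts in such rows was not higher throughout. A value that is not whole (over 0.01 from the nearest whole number) shows that the authors divided reads among rows. Of member values above 0, 47.5, 50, 46.7 and 44.4% were not whole in the 4 libraries, against 7.9, 6.9, 7.5 and 5.7% of non-member values. In at least 1 library this held for 44 of 69 detected members (63.8%) and for 120 of 1196 detected non-members (10.0%). All 6 miR-297 and all 12 miR-467 members had such a value, against 15 of 29 of miR-466 and 11 of 22 of miR-669. By counts the picture differed: rows with such values held 22.4, 32.4, 22.3 and 24.0% of member counts and 27.4, 25.1, 36.5 and 15.2% of non-member counts, so members were higher in Ptf1a+/- replicate 2 and Ptf1a-/- replicate 2 and lower in the other libraries. A divided value can also come out whole: miR-669a-3p and miR-669o-3p each had 17.0 counts in Ptf1a+/- replicate 1 and 20.3 in Ptf1a+/- replicate 2. These shares are therefore lower limits for divided reads, and their order between libraries is uncertain. miR-669c-5p had whole counts throughout.

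In 8 groups of members the rows were the same to the decimal in each library and listed the same sequences. miR-669a-5p and miR-669p-5p each had 95.8 and 85.3 counts in Ptf1a+/- and 57.5 and 45.3 in Ptf1a-/-. miR-466a-3p and miR-466e-3p each had 20.2 and 27.1 against 20.6 and 17.3. miR-466b-3p, miR-466c-3p and miR-466p-3p each had 14.4 and 17.5 against 12.8 and 10.5. These 5 rows of miR-466 point to the same most frequent read (shown above), and their counts sum to 83.6 and 107 in Ptf1a+/- and to 79.6 and 66.1 in Ptf1a-/-.

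The other groups were smaller in counts. miR-669a-3p and miR-669o-3p each had 17.0 and 20.3 counts in Ptf1a+/- and 21.2 and 17.0 in Ptf1a-/-. miR-466b-5p and miR-466o-5p each had 17.7 and 23.8 against 13.5 and 14.5. The 3p arms of miR-297a, miR-297b and miR-297c each had 2.3 and 4.3 against 5.7 and 2.3. miR-466m-5p and miR-669m-5p, and miR-669d-2-3p and miR-669l-3p, stayed under 4 counts. Rows of such a group are 1 measurement written several times. miR-467a-3p and miR-467d-3p share a most frequent read but not their values, so how their reads were divided is uncertain.

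The most frequent sequence is written against miRBase22, with marks for mismatched bases, another 5′ end and a longer 3′ end; a shorter 3′ end is not marked. Over all listed members, 40.3, 53.4, 36.5 and 41.1% of sequences carried no mark, against 45.5, 43.5, 46.8 and 44.3% for non-members. Among members with 10 or more counts these shares were 51.5, 60.0, 60.0 and 57.1%, near the 56.7 to 59.7% of non-members. The share without a mark was thus higher at 10 or more counts for members and non-members alike.

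Which read was most frequent varied between libraries more often among member rows than among other rows. Of 32 members with 10 or more counts in each library, 14 (43.8%) had the same sequence in all 4, against 375 of 484 non-members (77.5%). Between 10 and 250 counts the figures were 13 of 31 (41.9%) and 151 of 228 (66.2%). Rows that point to the same read were each counted. The varying rows included miR-466a-3p, miR-466b-3p, miR-466c-3p, miR-466e-3p and miR-466p-3p, which share 1 most frequent read. They also held the pairs miR-669a-3p with miR-669o-3p and miR-669a-5p with miR-669p-5p. Among unchanged rows only miR-466b-5p and miR-466o-5p shared a read. Repeats thus fell mostly among varying rows, and shares over distinct reads were not taken. The first 8 bases were the same in all 4 libraries for 31 of 32 members and for 452 of 484 non-members. Most of the variation among members thus lay after base 8. Counts behind each sequence are not given, and a lead of 1 read would suffice.

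For 3 of the 32 members (9.4%) the read was longer in both Ptf1a-/- libraries than in both Ptf1a+/- libraries, against 4 of 484 non-members (0.8%). They were miR-467a-5p and the rows miR-669a-5p and miR-669p-5p, which share 1 sequence. A shorter read in both was found for 0 members and 4 non-members. The reads are shown for miR-467a-5p and miR-669a-5p.
miR-467a-5p, both Ptf1a+/- libraries: TAAGTGCCTGCATGTATATGC
miR-467a-5p, both Ptf1a-/- libraries: TAAGTGCCTGCATGTATATGCG
miR-669a-5p, both Ptf1a+/- libraries: AGTTGTGTGTGCATGTTCATGT
miR-669a-5p, Ptf1a-/- replicate 1: AGTTGTGTGTGCATGTTCATGTC
miR-669a-5p, Ptf1a-/- replicate 2: AGTTGTGTGTGCATGTTCATGTCT
The seed is the same in each pair. miR-467b-5p, by contrast, had the same read in all 4 libraries: the first 20 bases of miR-467a-5p with a final T. Without that T it matched 12 precursors inside Sfmbt2, and with it 0.

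The change between genotypes was tested for the 35 members that reached 10 counts in 2 or more libraries, 2 of miR-297, 13 of miR-466, 7 of miR-467 and 13 of miR-669. Of these, 32 had that count in each library, so few passed through 1 genotype. Of the 35, 0 were called in either direction by edgeR's quasi-likelihood test (threshold 0.05 after Benjamini-Hochberg adjustment over all 584 tested miRNAs), and 0 had an unadjusted p under 0.05. Over all tested miRNAs 57 of 584 (9.76%) were called, 36 higher (6.16%) and 21 lower (3.6%), and 148 (25.3%) had an unadjusted p under 0.05. Scaled by library size alone, 4 were called higher and 12 lower. DESeq2 also called 0 members, with 0 at an unadjusted p under 0.05. Other settings on all 4 libraries called 0 members too, with 0 to 4 at an unadjusted p under 0.05 (4 with limma on the deposited CPM).

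The 35 rows are not 35 measurements. They had 27 distinct most frequent sequences and 22 seeds, and 20 of the 33 that matched a precursor matched several. Members were also measured less precisely than the table as a whole: the median SE of the log2 fold change was 0.29, against 0.226 over all tested miRNAs. The 95% interval lay within 1 log2 unit of 0 for 21 of 35 members and for 338 of 584 miRNAs. For the other 14 members a change of 2-fold in at least 1 direction lay inside the interval.

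Log2 fold changes of members ran from -0.83 to 0.99 with a median of -0.066, against -0.0031 over all tested miRNAs. A change beyond 1 log2 unit was fitted for 0 members and for 9.08% of all tested miRNAs. Below 0 lay 22 members and above 0 lay 13, against 296 and 288 of all tested miRNAs. This split follows the scaling: with library size alone 30 members lay below 0 and 5 above, and with limma on the deposited CPM 32 and 3. Both Ptf1a-/- libraries were below both Ptf1a+/- libraries for 14 member rows (40.0%, against 31.5% of all tested). They were above for 5 (14.3%, against 26.7%), and 16 overlapped. Same-value rows stand more than once here, so these are not shares of separate measurements. The lower rows included miR-466b-3p with miR-466c-3p and miR-466p-3p, miR-466b-5p with miR-466o-5p, and miR-669a-5p with miR-669p-5p. The higher rows included miR-669a-3p with miR-669o-3p, and the overlapping rows miR-466a-3p with miR-466e-3p. Family medians were -0.36 for miR-297, -0.038 for miR-466, -0.047 for miR-467 and -0.066 for miR-669.

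**Figure D3:**
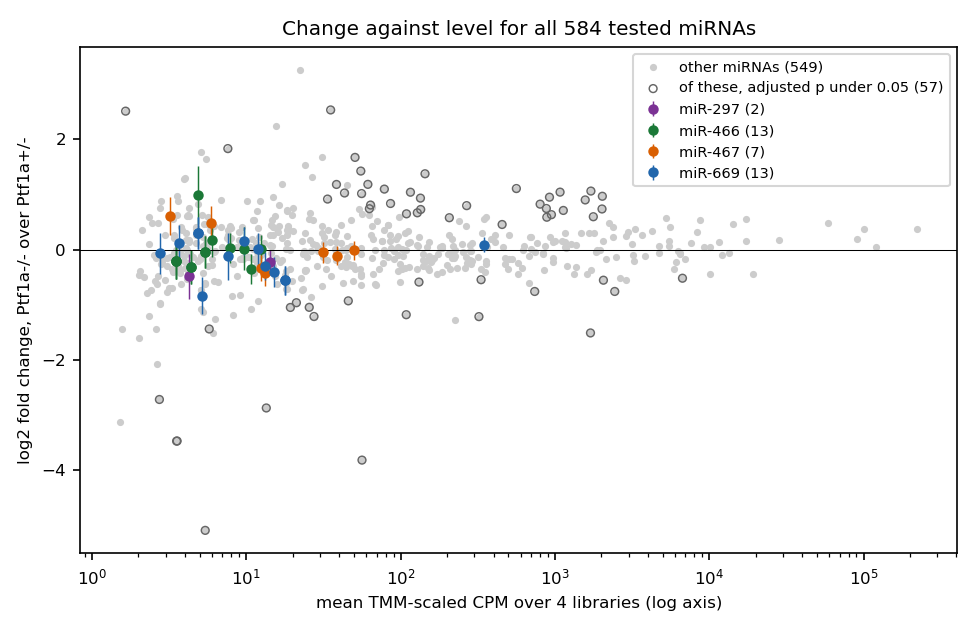
Log2 fold change of Ptf1a-/- over Ptf1a+/- (y axis) against mean TMM-scaled CPM over 4 libraries (log x axis) for all 584 tested miRNAs; coloured points are the 35 tested members with bars of 1 SE, open rings the 57 called miRNAs. Members lie between -0.83 and 0.99, and none carries a ring.

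The 4 most abundant members differed between genotypes by less than their error. miR-669c-5p had 1315 and 1585 counts in Ptf1a+/- and 1241 and 1303 in Ptf1a-/-, or 339.6 and 337 against 320.2 and 401 CPM. The Ptf1a-/- libraries lay on both sides of the Ptf1a+/- pair, and the log2 fold change was 0.091 ± 0.14 (SE; adjusted p = 0.752; 95% interval -0.25 to 0.43). Its direction turned with the scaling, to -0.104 on library size alone.

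miR-467e-5p had 196.5 and 234.5 counts in Ptf1a+/- and 210.5 and 145.5 in Ptf1a-/-, or 50.7 and 49.9 against 54.3 and 44.8 CPM. The groups overlapped, with a log2 fold change of -0.013 ± 0.17 (adjusted p = 0.975; interval -0.42 to 0.40). miR-467c-5p had 42.1 and 38.0 against 35.9 and 38.2 CPM, also overlapping (-0.11 ± 0.17; adjusted p = 0.755; interval -0.53 to 0.31). miR-467a-5p had 31.8 and 32.2 against 34.1 and 27.9 CPM (-0.047 ± 0.19; adjusted p = 0.913; interval -0.52 to 0.42). In each of these 3 arms, 2-fold changes lie outside the interval.

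Other abundant 5p arms were lower in both Ptf1a-/- libraries without passing the test. miR-669a-5p and miR-669p-5p, 1 measurement under 2 names, had 24.7 and 18.1 CPM in Ptf1a+/- and 14.8 and 13.9 in Ptf1a-/- (-0.56 ± 0.26; adjusted p = 0.244; interval -1.18 to 0.071). miR-669e-5p had 18.3 and 16.2 against 15.2 and 10.5 CPM (-0.40 ± 0.27; adjusted p = 0.41), and its value was -0.71 without Ptf1a-/- replicate 1 and -0.152 without Ptf1a-/- replicate 2. miR-467b-5p, with the seed of miR-467a-5p, had 15.0 and 15.3 against 10.8 and 11.9 CPM (-0.43 ± 0.23; adjusted p = 0.316). None of their groups overlapped, which was also the case, in this direction, for 31.5% of all tested miRNAs.

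miR-297b-5p had 15.2 and 15.7 CPM in Ptf1a+/- and 12.8 and 13.4 in Ptf1a-/- (-0.23 ± 0.22; adjusted p = 0.575). miR-669b-5p had 12.9 and 16.2 against 12.6 and 11.1 CPM (-0.30 ± 0.25; adjusted p = 0.519). Its Ptf1a-/- replicate 1 lay just below Ptf1a+/- replicate 1. The lowest p among members was that of miR-669d-5p, which matches Mir669d and a second copy. It had 26 and 30 counts in Ptf1a+/- and 11 and 15 in Ptf1a-/-, or 6.71 and 6.38 against 2.84 and 4.62 CPM (-0.83 ± 0.34; adjusted p = 0.2; interval -1.67 to 0.0046).

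The largest positive values belonged to members with few counts. miR-466i-5p had 6 and 22 counts in Ptf1a+/- and 19 and 27 in Ptf1a-/-, or 1.55 and 4.68 against 4.90 and 8.31 CPM (0.99 ± 0.53; adjusted p = 0.316; interval -0.31 to 2.29). Without Ptf1a+/- replicate 1 the value was 0.475, and without Ptf1a+/- replicate 2 it was 2.05, neither of them called. Its most frequent sequence was a different one in each of the 4 libraries, so its origin among the precursors is uncertain. miR-467a-3p had 2.19 and 2.87 against 4.0 and 3.69 CPM (0.61 ± 0.35; adjusted p = 0.344; interval -0.25 to 1.47). miR-467d-3p, which shares its most frequent read, had 5.81 and 4.36 against 6.97 and 6.62 CPM (0.48 ± 0.30; adjusted p = 0.388; interval -0.26 to 1.22). Neither pair of groups overlapped, which was also the case, in this direction, for 26.7% of all tested miRNAs.

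**Figure D4:**
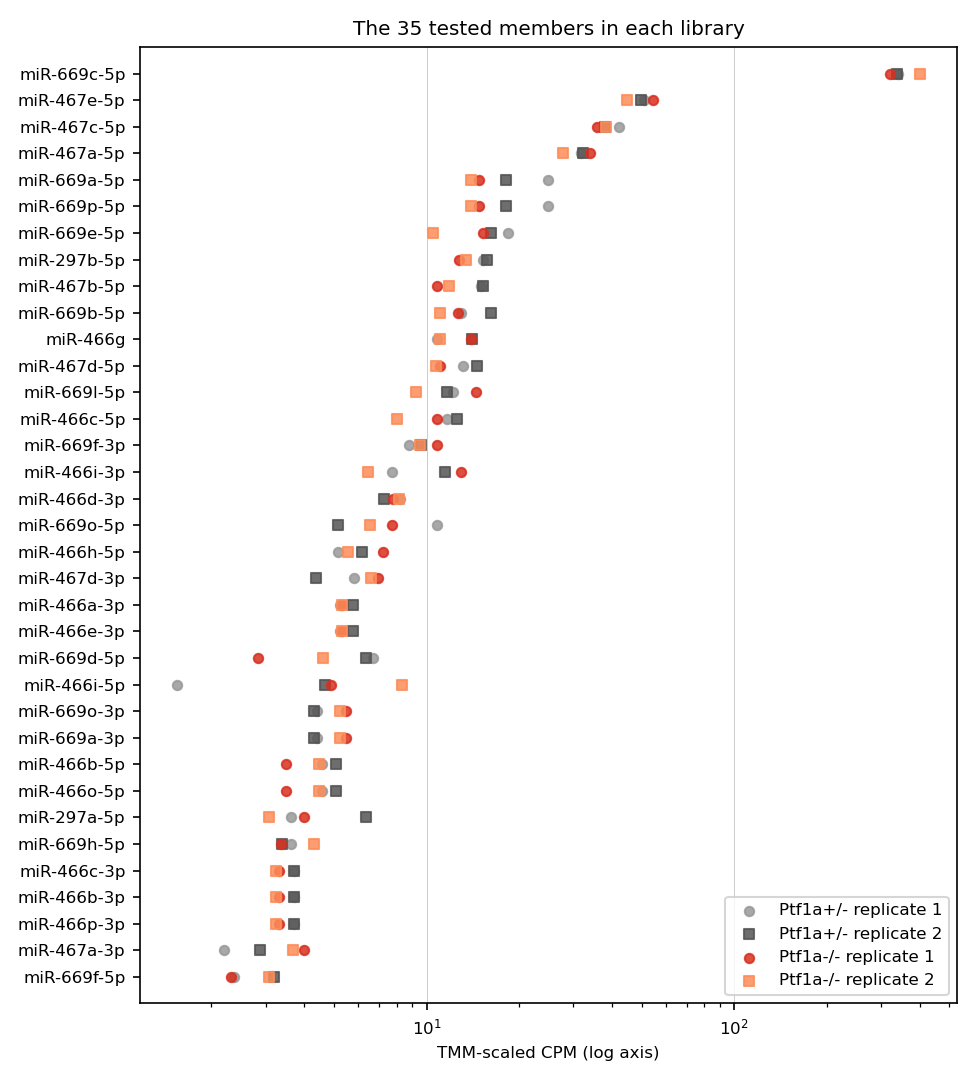
TMM-scaled CPM (log x axis) of each of the 35 tested members (y axis, by mean level) in the 4 libraries; grey symbols are Ptf1a+/- and red symbols Ptf1a-/-, circles replicate 1 and squares replicate 2. miR-669c-5p lies between 320.2 and 401, and the other members lie below 55.

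The remaining tested members lay between the values named above. miR-466g had 10.8 and 14 CPM in Ptf1a+/- and 13.9 and 11.1 in Ptf1a-/-. Its read held 1 mismatch in every library, so no match was sought, although a precursor named Mir466g is annotated 49.31 kb into the cluster. miR-466i-3p had 7.75 and 11.5 against 12.9 and 6.46 CPM, with its lowest and highest values in the Ptf1a-/- pair. Its most frequent read held 1 mismatch and it was left without a match, although Mir466i is annotated at chr13:17747473-17747593. RefSeq (GRCm38.p6) gave a mature sequence for 8 members, of which miR-466i-3p alone was tested. The RefSeq form, chr13:17747552-17747573 on the plus strand, and the most frequent read differ at the 3′ end.
miR-466i-3p, RefSeq: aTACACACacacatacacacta
miR-466i-3p, most frequent read: aTACACACacacatacacactct

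Leaving out 1 library moved calls among members. Without Ptf1a-/- replicate 2, the library with the lowest TMM factor, miR-669d-5p was called lower (log2 fold change -1.17). Without Ptf1a-/- replicate 1, miR-669c-5p (0.246, adjusted p = 3.84e-06) and miR-466i-5p (1.34, adjusted p = 0.00291) were called higher. In these fits the spread within genotype comes from the Ptf1a+/- pair alone, which was close, the lone library is assumed to vary like it, and 274 and 262 of all 584 miRNAs were called. The miR-669c-5p value without Ptf1a-/- replicate 2 was -0.059, so its call follows 1 library.

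The arms differed in where their values lay, a split made after the values were seen. The 22 tested 5p members had a median log2 fold change of -0.264 with 17 below 0, and the 12 tested 3p members a median of 0.026 with 5 below 0. In the same way, 13 members that matched 1 precursor had a median of -0.013 and 20 that matched several had -0.207. These groups share reads and members, and their differences were not tested.

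The 35 members below the count filter reached at most 13 counts in any library. Of these, 14 did not exceed 1 count and 24 did not exceed 3. The 2 that exceeded 10 were miR-466f-3p, with 2 and 7 counts in Ptf1a+/- and 13 and 4 in Ptf1a-/-, and miR-466k, with 12 and 6 against 5 and 6. No change could be assessed at this depth.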

How the data were processed

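Per the labels' protocols, retina RNA of 18 to 30 nt was gel-purified, made into libraries with a New England Biolabs kit and size-selected again. Ligation, PCR and both size cuts favour certain sequences, which bears on comparisons between miRNAs more than on those between libraries. PCR duplicates could not be removed without molecular identifiers, and limits for a count of 0 cover counting error only. The submitters' processing notes name bcl2fastq 2.20.0.422. Both aligner and counter were not given in the sources used here. In the raw table the authors deposited are estimated counts, with shared reads divided to 1 decimal. The deposited CPM table holds the same counts over 1 total per library. The deposited table of most frequent sequences is text, written against miRBase22 per the file headers. 0 columns lacked a sample.

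Counts were rounded (the design had assumed whole or estimated counts) and tested with edgeR 4.0.16 in R 4.3.3: quasi-likelihood F test, TMM, genotype only, 10 or more counts in at least 2 libraries, Benjamini-Hochberg over all tested miRNAs, called under 0.05. SE is the log2 fold change over the root of F, and intervals use the fit's degrees of freedom. Levels are TMM-scaled CPM of unrounded counts. DESeq2 1.42.0, limma 3.58.1 and other filters, scalings and library sets were alternatives. Replicates are separate libraries, but nothing says they came from separate embryos, so p-values may reflect technical spread. Counting shared reads by row means that rows with near-identical sequences are not independent.

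Sequences were matched exactly to GENCODE M21 precursors (GRCm38). Values in every library are given for the 10 members of highest mean, the 3 largest changes each way and the 3 smallest p; others were chosen after their values were seen. The members and lists were chosen with earlier results of these data known.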

Additional observations from a re-analysis of the deposited data

How the results depend on the processing

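Members called stayed at 0 under each full set of libraries tried (DESeq2, library size alone, limma on the deposited CPM, other filters, same-value rows summed to 30 rows, Ptf1a+/- libraries summed, deposited total as library size) and ranged from 0 to 2 when 1 library was left out. At an unadjusted p under 0.05 stood 0 members with DESeq2, 1 with library size alone, 4 with limma, 2 with no filter, 1 with the block, 1 with same-value rows summed and 4 with the deposited total. The count of called miRNAs, 57, was less stable: 16 with library size alone, 7 with limma on log2 of the deposited CPM plus 1, 21 with no filter beyond 1 count, 1 with the Ptf1a+/- libraries summed, 29 with the deposited total (added after seeing the data) and 1 to 274 without 1 library. With the replicate number as a block it was 12 and members called were 0; same-numbered libraries deviated together with r = 0.054, and 2 pairs do not show that the numbers pair samples. The members' median log2 fold change, -0.066, became -0.249 with library size alone (-0.177 over all miRNAs), -0.365 with limma (-0.332), -0.408 with the deposited total (-0.335), -0.187 over the 14 members with 50 or more counts in 2 libraries, and -0.184 to -0.036 without 1 library. Of 178 alternatives for the 14 members named by rule, 168 kept direction and call, 3 became calls (given in the report) and 7 turned direction. miR-669c-5p turned to -0.104, -0.261 and -0.262 with these 3 scalings, and without 1 library it ran from -0.059 (without Ptf1a-/- replicate 2) to 0.246. Without 1 library miR-467e-5p ran from -0.158 to 0.131 and miR-467a-5p from -0.211 to 0.106, both highest without Ptf1a-/- replicate 2; miR-467e-5p was also above 0 (0.0019) without Ptf1a+/- replicate 1. The ranges without 1 library were also wide for miR-466i-5p (0.475 to 2.05), miR-669e-5p (-0.71 to -0.152), miR-669d-5p (-1.17 to -0.497), miR-669a-5p (-0.779 to -0.32), miR-669b-5p (-0.436 to -0.117), miR-467c-5p (-0.186 to -0.030), miR-467a-3p (0.40 to 0.915) and miR-467d-3p (0.274 to 0.693). The cause was not tested. At 3 or more counts 38 and 47 members were detected in Ptf1a+/- and 42 and 40 in Ptf1a-/-, and at 10 or more 33, 35, 35 and 35. Sequences without a mark rose in each library at 10 or more counts, to 51.5 and 60.0% in Ptf1a+/- and to 60.0 and 57.1% in Ptf1a-/-. Low counts limit the precision of most members.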
